A study of Mus musculus with 6 samples.

Results

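The genes described here were the amino acid transporters of the mouse liver and their relatives. They were taken by name, from among the genes in the gene expression table whose symbol begins with Slc1a, Slc3a, Slc6a, Slc7a, Slc36a, Slc38a or Slc43a. The set holds 64 of the 21362 genes in the table, with 6 from Slc1a, 2 from Slc3a, 21 from Slc6a, 16 from Slc7a, 5 from Slc36a, 11 from Slc38a and 3 from Slc43a. Of these, 61 code for carriers or their partner subunits, and Slc7a6os, Slc36a1os and Slc6a19os are opposite strand genes named after a neighbor. Since the rule goes by symbol, it also took carriers of other substrates, such as the creatine carrier Slc6a8 and the monoamine carriers Slc6a2, Slc6a3 and Slc6a4.

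Hepatocytes take amino acids from portal blood, use them for protein synthesis, gluconeogenesis and urea synthesis, and return some of them to the circulation. Most amino acids cross membranes only through carriers. Slc38 carriers and, within the Slc1 family, Slc1a4 and Slc1a5 move neutral amino acids such as glutamine and alanine with sodium. Many Slc7 carriers exchange one amino acid for another, and Slc6 carriers use sodium and chloride to take up glycine, betaine, taurine or creatine. Several Slc7 carriers are light chains that reach the plasma membrane only when paired with a heavy chain from the Slc3 family, and carriers on the lysosome pass amino acid signals to the growth regulator mTORC1.

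Liver RNA was sequenced from male mice carrying floxed Mettl14 alleles (Mettl14f/f). Mettl14 encodes a subunit of the enzyme complex that writes N6-methyladenosine on RNA. All mice were fed a high fat diet (HFD) from 8 weeks of age for 10 weeks, received a tail vein injection of AAV8-TBG-Cre or of the control vector AAV8-TBG-GFP, and were sampled 8 weeks later, with 3 livers per group. The TBG promoter restricts Cre to hepatocytes, so other liver cells kept the floxed alleles, and the controls shared the alleles, the diet and the viral serotype. The labels give the genotypes as WT for AAV8-TBG-GFP and METTL14 KO for AAV8-TBG-Cre. The groups were compared to ask how loss of hepatocyte Mettl14 in diet-induced obesity relates to transporter expression.

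The 6 libraries held 20356466 to 21010527 expected counts, of which the 64 genes took 0.365% to 0.658%. Values are given as CPM (counts relative to library size, scaled between libraries) when livers are compared, and as FPKM (fragments relative to transcript length and library size) when levels of different genes are compared. Mettl14 itself was read at 6.30, 6.43 and 5.81 CPM in the AAV8-TBG-GFP livers and at 4.96, 5.38 and 4.86 CPM in the livers labelled AAV8-TBG-Cre. The AAV8-TBG-Cre values were all below the controls, but the difference was small and missed the threshold (log2 fold change -0.29 ± 0.15 SE, n = 3 per group, adjusted p = 0.336 by edgeR). The deposited counts cover whole transcripts and do not show the floxed exon separately, so the direction of every comparison below rests on the labels. Hepatocyte markers such as Alb and Apoa1 were abundant in every library, with 81997 to 118998 CPM summed over 10 markers. Livers 1 and 2 of AAV8-TBG-GFP and liver 1 of AAV8-TBG-Cre carry short library names and the other 3 carry long ones. The labels do not explain the difference. Ratios within each form are given for Slc6a8, Slc7a1 and Slc3a1 only, and other genes also differed between the forms. For example, the log2 ratio of Slc38a2 was 0.10 within short-named and -0.84 within long-named libraries, and that of Slc43a3 was -0.68 and 0.66.

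Levels across the 64 genes spanned several orders of magnitude in the control livers. Slc38a3, the system N carrier that moves glutamine, histidine and asparagine in either direction, was at 784, 927 and 587 FPKM in AAV8-TBG-GFP livers and at 1168, 642 and 770 FPKM in AAV8-TBG-Cre livers. It alone took 37.2% to 45.9% of all counts of the 64 genes in each library. Slc38a4, a system A carrier of neutral amino acids that is most abundant in liver, came next with 260 ± 52.4 FPKM (SD, n = 3), and its control range did not overlap that of Slc38a3 above it or of the genes below it. Slc6a13, a carrier of GABA and taurine, stood at 79.2 ± 13.6 FPKM and Slc7a2, a carrier of arginine and lysine, at 63.7 ± 14.5 FPKM (SD, n = 3). Their ranges overlapped each other, and neither range overlapped Slc38a4 or the gene that followed.

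Slc38a2, Slc6a12, Slc3a1, Slc38a10, Slc6a9 and Slc3a2 completed the 10 highest genes with control means from 31.6 down to 20.9 FPKM, and each overlapped the next in this order. A gap separated Slc3a2 from Slc43a3 at 12.3 ± 4.40 FPKM (SD, n = 3). In all, 13 of the 64 genes had a control mean of at least 10 FPKM and 26 had at least 1 FPKM. At the other end, 10 genes had no count in any library, among them Slc38a8, Slc6a14, Slc6a20a and Slc7a12. They include carriers best known from brain, such as the dopamine carrier Slc6a3 and the second glycine carrier Slc6a5. A count of 0 allows up to 3 counts in a library, so it does not show that a gene is absent.

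**Figure D1:**
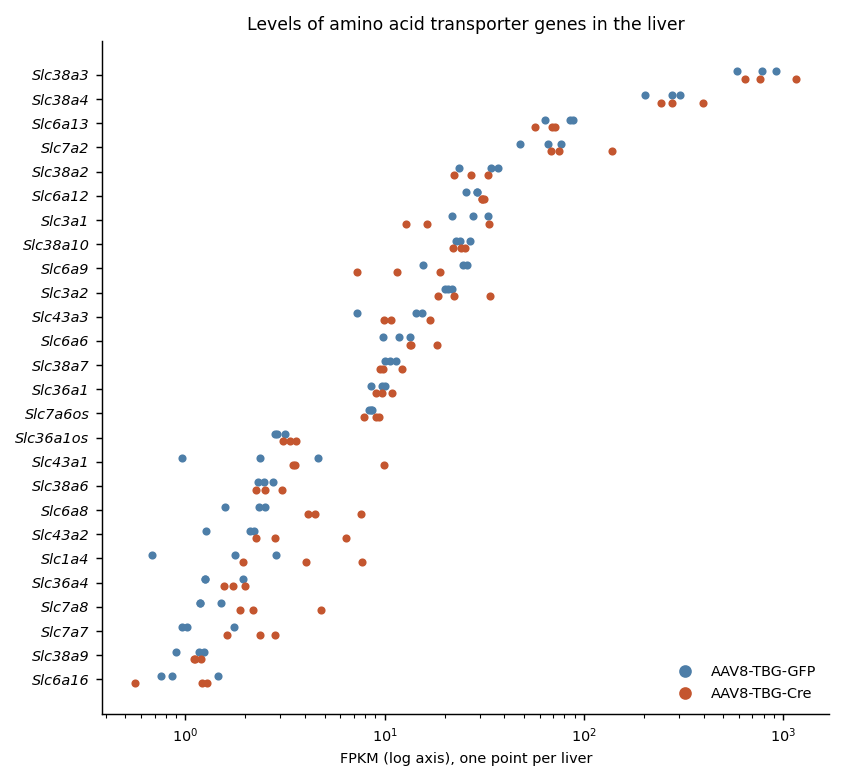
FPKM on a log axis (x) of each gene with a mean of at least 1 FPKM in AAV8-TBG-GFP livers (y), with one point per liver, blue for AAV8-TBG-GFP and orange for AAV8-TBG-Cre. Slc38a3 and Slc38a4 lie above all other genes in both groups. The orange points of Slc6a8 lie to the right of the blue ones, as do those of Slc6a6, Slc6a12, Slc7a8 and Slc43a2.

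Between the groups, the 10 highest genes overlapped in CPM, and the genes past the threshold on the higher side were all scarce in control liver. In FPKM, Slc6a12 of these 10 did not overlap (25.8 to 29.2 in AAV8-TBG-GFP livers and 30.8 to 31.4 in AAV8-TBG-Cre livers). Of the 64 genes, 37 passed the filter on low counts and were tested, and 27 were not (the 10 without a count and 17 with few). At an unadjusted p under 0.05 and a fold of at least 1.2, 7 of the 37 were higher in AAV8-TBG-Cre livers (18.9%) against 12.0% of all 13431 genes tested, and 2 were lower (5.41%) against 8.41%. The higher genes were Slc6a8, Slc7a8, Slc7a6, Slc7a11, Slc43a2, Slc1a5 and Slc7a1, and the lower ones were Slc6a9 and Slc6a13. None of the 37 passed an adjusted p of 0.05 by edgeR (9 had an unadjusted p under 0.05), compared with 0.931% of all genes tested (0.484% higher and 0.447% lower). DESeq2, run on 54 of the genes, called 4 higher at that adjusted threshold (Slc1a5, Slc6a8, Slc7a11 and Slc7a8) and none lower, against 4.06% and 2.22% of the genes it tested. The median log2 fold change was 0.05 over the 37 genes (range -0.97 to 4.31) and -0.0062 over all genes tested.

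**Figure D2:**
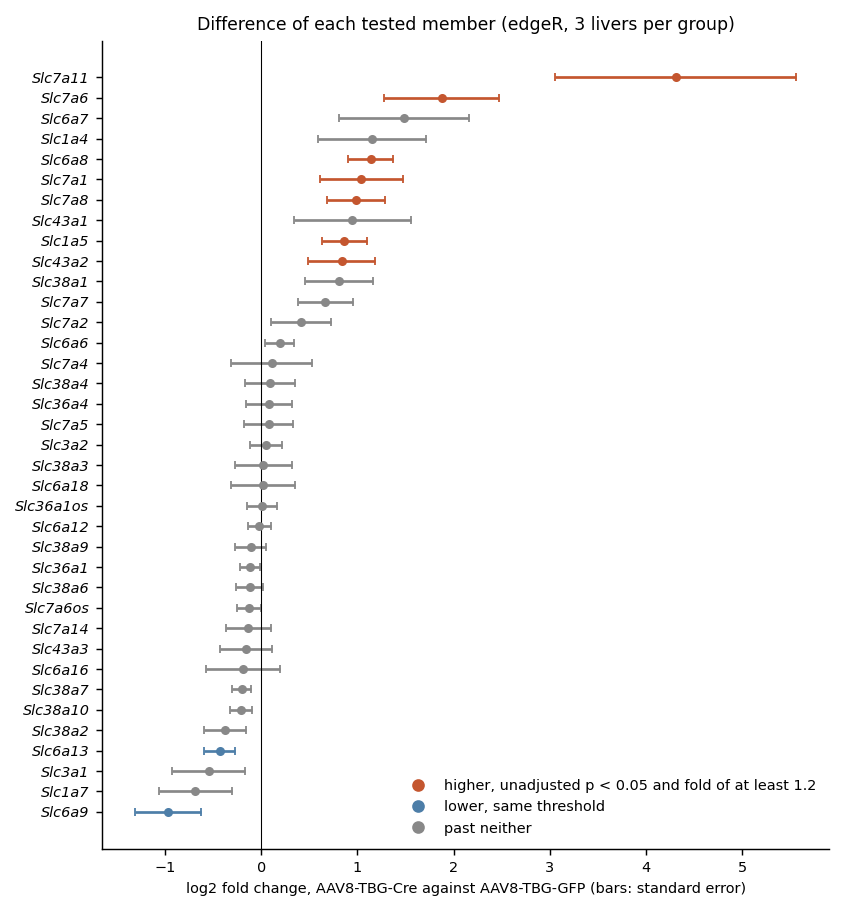
Log2 fold change of each of the 37 tested genes (x, AAV8-TBG-Cre against AAV8-TBG-GFP, bars are the standard error from edgeR, 3 livers per group) by gene (y). Orange marks the 7 genes called higher, blue the 2 called lower and gray the rest, whose values lie mostly close to 0.

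Slc7a6 and Slc7a11 entered the test only through the AAV8-TBG-Cre livers, because too few counts were read in the controls, so the 2 genes could be called in no direction but higher. They are counted among the 7 genes called higher, the higher genes without overlap below and those called without AAV8-TBG-Cre liver 2. The share of such genes among all genes tested was not computed. No gene entered only through the control livers. In 6 of the 37 genes (16.2%) every AAV8-TBG-Cre liver lay above every control liver in CPM, against 14.0% of all genes tested. They were Slc1a5, Slc38a1, Slc6a8, Slc7a11, Slc7a6 and Slc7a8. Slc6a6, Slc6a12 and Slc43a2 were higher without overlap on the FPKM scale only. In the other direction only Slc38a7, a lysosomal glutamine carrier, did not overlap (1 gene, 2.7%, against 13.0%), and its groups overlapped on the FPKM scale. With 3 livers against 3, groups that do not overlap always give a two-sided exact permutation p of 0.1, the smallest the design allows, so that test adds nothing for these 7 genes.

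Slc6a8, the creatine carrier, showed the smallest p of the 37 genes. It was at 10.5, 6.68 and 10.4 CPM in AAV8-TBG-GFP livers and at 17.5, 26.1 and 16.8 CPM in AAV8-TBG-Cre livers. All 3 AAV8-TBG-Cre livers were above all controls, and liver 2 was the highest. This was a 2.20-fold difference (log2 fold change 1.14 ± 0.24 SE, adjusted p = 0.0620 by edgeR). The call held in 16 of 16 alternative fits and leave-one-out fits, with log2 fold changes from 0.90 to 1.27, and log2 ratios were alike within short-named (1.03) and long-named (1.05) libraries. Slc6a8 lies on chromosome X from 73673133 to 73682502 (RefSeq, GRCm38.p6) and its span overlaps the predicted gene Gm32261. Every count of Slc6a8 came from the same listed transcript in 5 livers, and that transcript took 86.3% in AAV8-TBG-Cre liver 3.

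**Figure D3:**
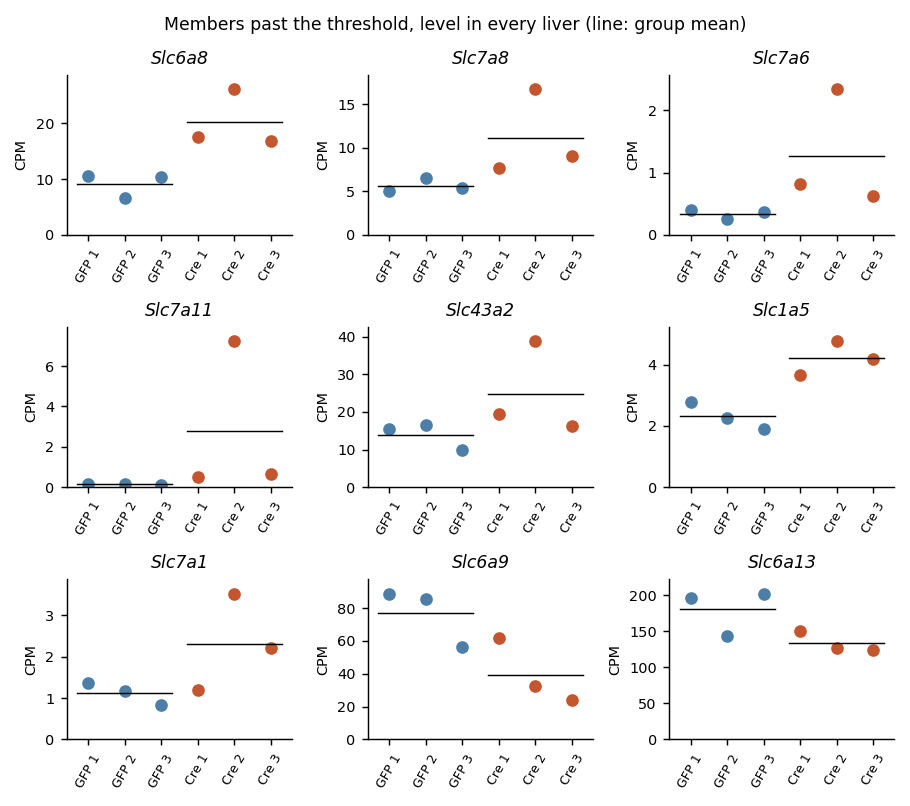
CPM (y, linear from 0) of the 9 genes past the threshold in each of the 6 livers (x), blue for AAV8-TBG-GFP and orange for AAV8-TBG-Cre, with lines at the group means. Liver 2 of AAV8-TBG-Cre is the highest of the 6 livers in all 7 genes that were higher.

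The light chains that pair with heavy chains of the Slc3 family differed among themselves. Slc3a2 (CD98, 4F2hc) is the heavy chain of the exchangers Slc7a5, Slc7a6, Slc7a7, Slc7a8, Slc7a10 and Slc7a11, and Slc3a1 (rBAT) is that of Slc7a9 and Slc7a13. Slc7a8 was called higher, as were Slc7a6 and Slc7a11, which could be called in no other direction. Slc3a2 was read at 54.9, 59.8 and 60.1 CPM in AAV8-TBG-GFP livers and at 47.3, 74.8 and 58.8 CPM in AAV8-TBG-Cre livers. The Slc3a2 groups overlapped, with the lowest and the highest liver both in AAV8-TBG-Cre (log2 fold change 0.05 ± 0.17 SE, adjusted p = 0.895 by edgeR).

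Slc7a8 (LAT2) exchanges neutral amino acids across the basolateral membrane of epithelia. It was at 5.03, 6.53 and 5.34 CPM in AAV8-TBG-GFP livers and at 7.64, 16.8 and 9.05 CPM in AAV8-TBG-Cre livers. The groups did not overlap, and AAV8-TBG-Cre liver 2 stood well above the other livers. The log2 fold change was 0.99 ± 0.30 SE (adjusted p = 0.132 by edgeR) and was 0.56 without that liver, still past the unadjusted threshold.

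Slc7a6 (y+LAT2), which exchanges arginine and lysine for neutral amino acids with sodium, was at 0.407, 0.255 and 0.366 CPM in AAV8-TBG-GFP livers and at 0.811, 2.34 and 0.626 CPM in AAV8-TBG-Cre livers. Counts were low, with 5 to 8 in each control library and 13 to 57 in the others, and the groups did not overlap. The log2 fold change was 1.88 ± 0.60 SE (adjusted p = 0.141 by edgeR) and fell to 1.05 without AAV8-TBG-Cre liver 2. Without control liver 2 it was 1.70 and just missed the threshold. Its relative Slc7a7 (y+LAT1), which performs the same exchange, was at 3.91, 2.14 and 2.51 CPM in AAV8-TBG-GFP livers and at 5.01, 5.13 and 3.47 CPM in AAV8-TBG-Cre livers. The Slc7a7 groups overlapped and it narrowly missed the threshold (log2 fold change 0.67, unadjusted p = 0.0501 by edgeR), although 11 of 16 alternative and leave-one-out fits called it higher.

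Slc7a5 (LAT1), the large neutral amino acid exchanger of dividing cells, was at 3.71, 2.60 and 2.36 CPM in AAV8-TBG-GFP livers and at 2.62, 3.57 and 2.94 CPM in AAV8-TBG-Cre livers. The groups overlapped throughout (log2 fold change 0.08 ± 0.26 SE, adjusted p = 0.892 by edgeR). Slc7a10 had at most 5 counts in any library, Slc7a13 at most 2 and Slc7a9 a count of 1 in a single liver, and the 3 genes were not tested.

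Slc7a11 (xCT) exports glutamate in exchange for cystine, the precursor of cysteine for glutathione. It was almost unread in controls, with 3, 3 and 2 counts (0.152, 0.153 and 0.105 CPM), and had 10, 176 and 14 counts (0.477, 7.23 and 0.674 CPM) in AAV8-TBG-Cre livers 1, 2 and 3. All AAV8-TBG-Cre livers were above all controls, but nearly all of its counts were read in liver 2. The ratio of summed, scaled counts was 22.1 (95% exact interval 11 to 51.9), and without liver 2 it was 4.20 (95% exact interval 1.82 to 10.8). These intervals cover counting error only and not the spread between livers. The fitted log2 fold change, which depends on the prior count at such low levels, was 4.31 ± 1.25 SE (adjusted p = 0.12 by edgeR), and it was 2.02 without liver 2.

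Slc7a11 is a known target of the amino acid starvation factor ATF4, so RefSeq promoters (GRCm38.p6, 250 bases before to 50 bases after each start) were searched for the composite element of ATF4 and C/EBP, spelled TGATGNAA, on both strands, after the expression values were known. The promoters of 46 of the 64 genes were in the table. The element was present in 1304 of all 32851 promoters (3.97%). Counted by gene, it was present in 1219 of 27025 genes (4.51%) and in 3 of the 46 (6.52%), namely Slc7a11, Slc7a7 and Slc1a4. Among genes tested for expression it was present in 2.86% of 10681 and in the same 3 of 26 (11.5%). With 3 genes these shares are given as a description. Slc7a11 prompted the search and is 1 of the 3, and it was tested for expression only through its AAV8-TBG-Cre counts. The shares therefore cannot serve as a test. The Slc7a11 promoter held 2 elements in opposite orientation between 66 and 40 bases before its start. Slc7a7 held 2 in the same orientation, 141 bases before its start and at the start itself, of which the former is shown, and the element of Slc1a4 spans its start. Of the 7 genes called higher, 5 had a promoter in the table and 1 of them, Slc7a11, held the element. The stretches around the elements are shown so that their arrangement can be compared. They are written 5′ to 3′ on the strand of the gene (the minus strand in each case), with the element in capitals. The positions are chr3:50443633-50443699 for Slc7a11, chr14:54418058-54418105 for Slc7a7 and chr11:20332710-20332737 for Slc1a4.
Slc7a11: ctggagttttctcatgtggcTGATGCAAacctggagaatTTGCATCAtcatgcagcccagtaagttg
Slc7a7: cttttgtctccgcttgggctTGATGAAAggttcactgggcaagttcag
Slc1a4: cctccagcgtgcctcctgcgTTGCATCA
A match describes these letters and is not a measured binding site.

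The sodium-dependent carriers of small neutral amino acids, Slc1a4 and Slc1a5, were both higher on average, and 1 passed the threshold. Slc1a5 (ASCT2), a glutamine carrier best known from proliferating cells, was at 2.80, 2.24 and 1.88 CPM in AAV8-TBG-GFP livers and at 3.67, 4.76 and 4.19 CPM in AAV8-TBG-Cre livers. The groups did not overlap and the livers within each group were close together (log2 fold change 0.87 ± 0.23 SE, adjusted p = 0.0982 by edgeR). The call held in 16 of 16 alternative and leave-one-out fits. Slc1a4 (ASCT1), a carrier of serine and alanine, was at 7.27, 2.86 and 12.4 CPM in AAV8-TBG-GFP livers and at 7.54, 26.1 and 16.1 CPM in AAV8-TBG-Cre livers. The Slc1a4 values overlapped and spread widely in both groups (log2 fold change 1.15 ± 0.56 SE, adjusted p = 0.294 by edgeR).

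Slc43a2 (LAT4) lets branched chain and aromatic amino acids leave the cell without sodium. It was at 15.6, 16.5 and 9.79 CPM in AAV8-TBG-GFP livers and at 19.6, 38.8 and 16.2 CPM in AAV8-TBG-Cre livers. Liver 3 of AAV8-TBG-Cre lay within the control range, and liver 2 stood far above the next. Slc43a2 had a log2 fold change of 0.84 ± 0.34 SE (adjusted p = 0.223 by edgeR), and without liver 2 it was 0.36 and the call was lost. Leaving out any of the control livers also ended the call (0.63 to 0.97). Its relative Slc43a1 (LAT3) was at 6.2, 12.2 and 2.57 CPM in AAV8-TBG-GFP livers and at 24.2, 7.43 and 9.0 CPM in AAV8-TBG-Cre livers, with AAV8-TBG-Cre liver 1 the highest and overlap between the groups. Slc43a1 was not called (log2 fold change 0.95 ± 0.61 SE, adjusted p = 0.424 by edgeR), but with the form of the library name in the model it was 1.51 with an adjusted p of 0.0491 by edgeR.

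The cationic amino acid carriers Slc7a1 and Slc7a2 differed in level and in which liver was highest. Slc7a1 (CAT1), the arginine carrier of most tissues other than liver, was at 1.37, 1.17 and 0.838 CPM in AAV8-TBG-GFP livers and at 1.19, 3.53 and 2.21 CPM in AAV8-TBG-Cre livers. Liver 1 of AAV8-TBG-Cre lay within the control range. Over all livers the log2 fold change was 1.04 ± 0.43 SE (adjusted p = 0.225 by edgeR). The call did not hold across the library names, with log2 ratios of -0.093 within short-named and 1.78 within long-named libraries, and without AAV8-TBG-Cre liver 2 the log2 fold change was 0.59 and not called. Of the 6 leave-one-out fits only that without AAV8-TBG-Cre liver 1 kept the call (1.35). The other 8 of the 9 called genes kept their direction within both name forms.

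Slc7a2 (CAT2), the liver's main arginine and lysine carrier, was at 538, 634 and 413 CPM in AAV8-TBG-GFP livers and at 1068, 502 and 545 CPM in AAV8-TBG-Cre livers. Only liver 1 of AAV8-TBG-Cre was outside the control range (log2 fold change 0.42 ± 0.31 SE, adjusted p = 0.50 by edgeR), and without it the log2 fold change was -0.02.

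The 2 genes that were lower belong to the Slc6 family. Slc6a9 (GlyT1), a glycine carrier, was at 88.9, 85.7 and 56.4 CPM in AAV8-TBG-GFP livers and at 61.7, 32.2 and 24.3 CPM in AAV8-TBG-Cre livers. Livers 2 and 3 of AAV8-TBG-Cre were below all controls, and liver 1 was above the lowest control. The log2 fold change was -0.97 ± 0.34 SE (adjusted p = 0.169 by edgeR), and without AAV8-TBG-Cre liver 1 it was -1.45 (adjusted p = 0.0278 by edgeR). The sign was kept and the call lost without AAV8-TBG-Cre liver 2 or 3 (-0.85 and -0.72) and without control liver 1 or 2 (-0.86 and -0.89). Slc6a9 lies on chromosome 4 from 117835258 to 117869305 and its span overlaps Ccdc24. Strand was not stated for the counting, so reads from the overlap cannot be told apart.

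Slc6a13 (GAT2) was at 197, 144 and 203 CPM in AAV8-TBG-GFP livers and at 151, 128 and 124 CPM in AAV8-TBG-Cre livers. Liver 1 of AAV8-TBG-Cre lay above control liver 2, and the other AAV8-TBG-Cre livers were below every control (log2 fold change -0.43 ± 0.16 SE, adjusted p = 0.190 by edgeR). The call held without control liver 2 or AAV8-TBG-Cre liver 1 and was lost in the other 4 leave-one-out fits (-0.40 to -0.36). The limma fits on FPKM did not call Slc6a13 either. In FPKM, AAV8-TBG-Cre livers 1 and 2 (71.5 and 69.7) both lay above control liver 2 (63.6). Its neighbor Slc6a12 (BGT1), the betaine carrier, lies beside it on chromosome 6, from 121342574 to 121365773 against 121300288 to 121337721 for Slc6a13. Slc6a12 was at 68.8, 78.7 and 82.6 CPM in AAV8-TBG-GFP livers and at 79.4, 67.6 and 80.1 CPM in AAV8-TBG-Cre livers. Its groups overlapped in CPM, though not in FPKM (log2 fold change -0.02 ± 0.12 SE, with the sign turning in 7 of 16 other fits).

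Slc3a1, the heavy chain whose listed light chains were nearly unread, showed a split among AAV8-TBG-Cre livers. It was at 66.6, 53.2 and 83.9 CPM in AAV8-TBG-GFP livers and at 76.2, 25.2 and 38.1 CPM in AAV8-TBG-Cre livers. Livers 2 and 3 were below every control and liver 1 was within the control range. For Slc3a1 the log2 fold change was -0.55 ± 0.38 SE (adjusted p = 0.457 by edgeR), and without AAV8-TBG-Cre liver 1 it was -1.10 (adjusted p = 0.0438 by edgeR). Within short-named libraries the log2 ratio was 0.35 and within long-named ones -1.41. Slc3a1 overlaps Prepl on chromosome 17 (85028347 to 85064241).

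The 2 most abundant carriers did not pass the threshold. Slc38a3 was at 2008, 2413 and 1594 CPM in AAV8-TBG-GFP livers and at 2834, 1350 and 1929 CPM in AAV8-TBG-Cre livers (log2 fold change 0.02 ± 0.30 SE, adjusted p = 0.976 by edgeR). Slc38a4 was at 1136, 1267 and 879 CPM in AAV8-TBG-GFP livers and at 1549, 828 and 1111 CPM in AAV8-TBG-Cre livers (log2 fold change 0.09 ± 0.26 SE, adjusted p = 0.879 by edgeR). In both genes the lowest and the highest liver were AAV8-TBG-Cre livers 2 and 1. Slc38a2 and Slc38a10, also among the 10 highest genes, were not called either, unlike Slc6a13 and Slc6a9. Slc38a2 (SNAT2), the system A carrier induced by amino acid shortage, was at 167, 117 and 191 CPM in AAV8-TBG-GFP livers and at 152, 109 and 106 CPM in AAV8-TBG-Cre livers, with overlapping groups (log2 fold change -0.37 ± 0.22 SE, adjusted p = 0.380 by edgeR). Slc38a10 was at 128, 111 and 121 CPM in AAV8-TBG-GFP livers and at 99.6, 99.0 and 113 CPM in AAV8-TBG-Cre livers (log2 fold change -0.21 ± 0.11 SE, adjusted p = 0.344 by edgeR). Its groups overlapped by a small margin.

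Slc38a3, Slc38a4, Slc43a1 and Slc7a2 were highest of all 6 livers in AAV8-TBG-Cre liver 1, as were 13.5% of all genes tested. The summed level of 10 periportal hepatocyte markers, which include Gls2 and Sds, was also highest there, at 12515 CPM against 7215 to 9009 in controls and 5538 and 7959 in AAV8-TBG-Cre livers 2 and 3. The part of these markers in the carrier levels was not tested. By contrast, 14 of the 37 tested genes (37.8%) were highest in AAV8-TBG-Cre liver 2, against 23.3% of all genes tested. The 14 include all 7 genes called higher. The share over all genes called higher, which are selected for high AAV8-TBG-Cre livers, was not computed.

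**Figure D4:**
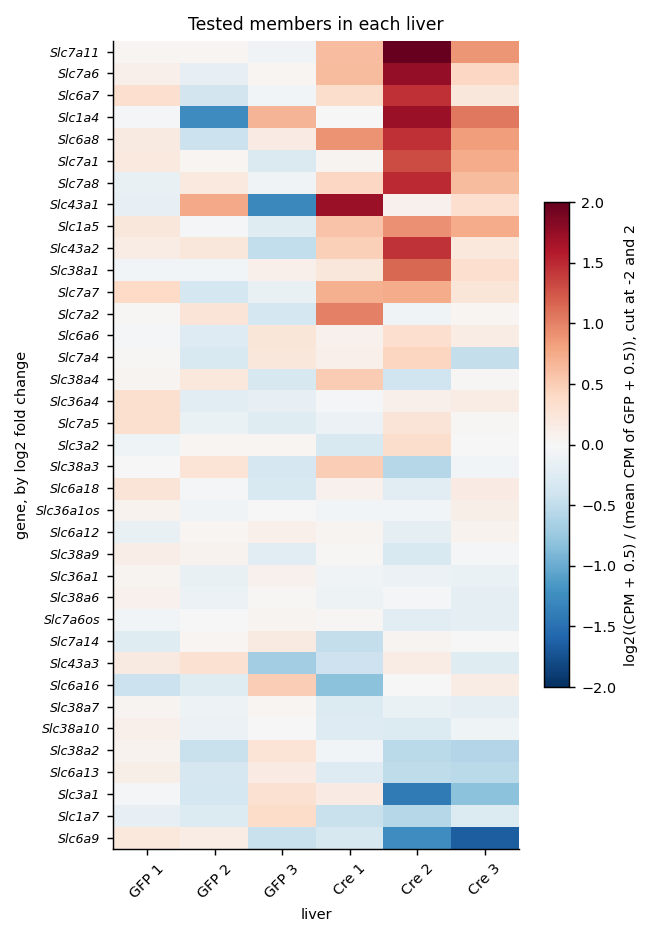
CPM of each of the 37 tested genes (rows, by log2 fold change) in each liver (columns) relative to the AAV8-TBG-GFP mean, as log2 with 0.5 CPM added to both (red higher, blue lower, color limits at -2 and 2). The red block at the top is darkest in AAV8-TBG-Cre liver 2, and Slc43a1 and Slc7a2 are reddest in AAV8-TBG-Cre liver 1.

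Liver 2 of AAV8-TBG-Cre also had the highest summed levels of cholangiocyte, macrophage and stellate cell markers. Of 11 cholangiocyte markers 10 were higher (90.9%, against 12.0% of all genes) and none lower, with 125 to 163 CPM in controls and 461, 681 and 395 CPM in AAV8-TBG-Cre livers 1, 2 and 3, and Sox9, Cldn4, Spp1 and Cdh1 passed the adjusted threshold by edgeR. Of 12 macrophage and Kupffer cell markers 9 were higher and none lower (189 to 211 CPM in controls and 288, 420 and 282 CPM in AAV8-TBG-Cre livers). Of 10 stellate cell and fibroblast markers 5 were higher and none lower (257 to 392 CPM in controls and 495, 1041 and 526 CPM). Every marker in these 3 lists had counts, and none was at 0 in all libraries. Hepatocyte markers summed to their lowest, 81997 CPM, in the same liver. The part of these cells in the levels of Slc7a11, Slc7a8, Slc43a2 and the other higher genes was not tested, and in bulk liver more cells of a type cannot be told apart from more RNA per cell. Without liver 2, 5 genes were called higher (Slc1a5, Slc6a8, Slc7a11, Slc7a6 and Slc7a8) against 8.18% of all genes, and none lower against 5.85% (0 by an adjusted p and 5 at an unadjusted p under 0.05 by edgeR).

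Among the other marker lists, endothelial, neutrophil and B cell markers summed to their highest in other livers. T and NK cell markers summed to their highest in AAV8-TBG-Cre liver 2 (6.41 CPM, against at most 5.20 CPM in controls). The calls below stand against 12.0% higher and 8.41% lower of all genes. Of 10 endothelial markers 1 was lower, but all 10 had a log2 fold change below 0 (median -0.31), while their summed levels overlapped between the groups. Of 10 pericentral hepatocyte markers 3 were lower, among them Glul and Cyp1a2, and 7 had a log2 fold change below 0 (median -0.25). The periportal list and the hepatocyte list each had 1 higher and 1 lower of 10. Few lymphocyte and neutrophil markers were read well enough to test, with 3 of 10 T and NK cell markers (1 higher, 1 lower), 1 of 6 B cell markers (higher) and 4 of 6 neutrophil markers (2 higher, 1 lower).

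**Figure D5:**
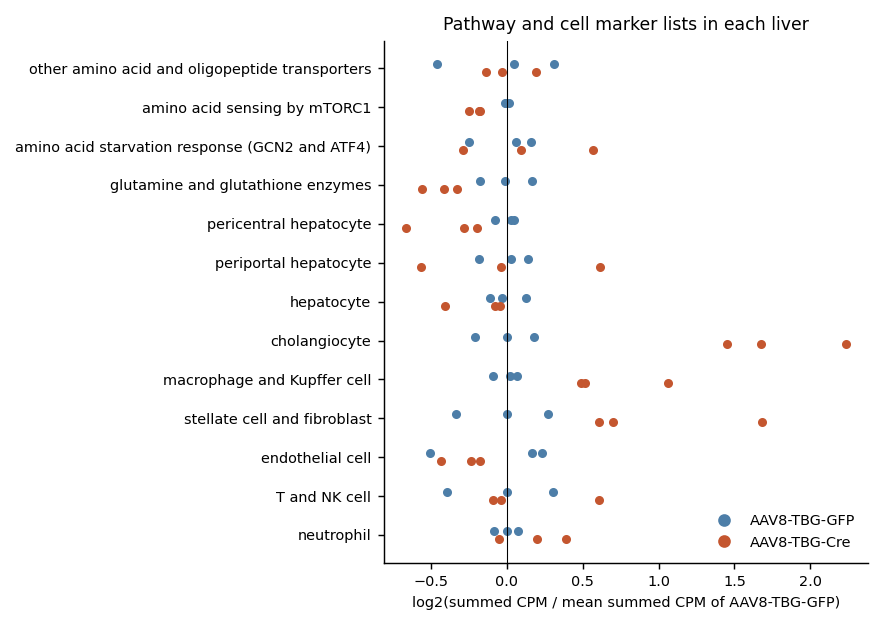
Summed CPM of each pathway and marker list with at least 3 tested genes (y) in each liver, as log2 relative to the AAV8-TBG-GFP mean (x), blue for AAV8-TBG-GFP and orange for AAV8-TBG-Cre. The cholangiocyte, macrophage and stellate cell lists lie to the right of all controls in the 3 AAV8-TBG-Cre livers, and the mTORC1 list lies to the left.

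Amino acids that enter through these carriers are sensed by mTORC1 on the lysosome, and more of the sensing genes were called lower than higher. Of 28 tested genes of a 30-gene list, 8 were lower (28.6%, against 8.41% of all genes) and 1 was higher (3.57%, against 12.0%), and the list median was -0.17. None passed an adjusted p of 0.05 by edgeR (9 had an unadjusted p under 0.05). The lower genes were Castor1, Depdc5, Fnip2, Lamtor4, Mtor, Nprl2, Nprl3 and Rptor, which span the arginine sensor Castor1, the GATOR1 complex that restrains mTORC1 (Depdc5, Nprl2, Nprl3) and the kinase and scaffold of mTORC1 itself (Mtor, Rptor). Genes with opposite roles in the pathway were thus among the lower ones. Rptor was at 50.7, 50.8 and 55.2 CPM in AAV8-TBG-GFP livers and at 40.2, 40.7 and 46.4 CPM in AAV8-TBG-Cre livers, without overlap (log2 fold change -0.30, adjusted p = 0.159 by edgeR). Depdc5 was at 17.4, 16.6 and 14.2 CPM in AAV8-TBG-GFP livers and at 13.8, 11.5 and 11.2 CPM in AAV8-TBG-Cre livers. It did not overlap on this scale, by a small margin (log2 fold change -0.40, adjusted p = 0.160 by edgeR). The list was counted in the edgeR comparison only, and lower calls depend on the scaling. With limma on log2(FPKM + 1), 3.01% of all genes were lower. Rragd, a Rag GTPase, was the exception, at 3.10, 1.38 and 1.62 CPM in AAV8-TBG-GFP livers and at 7.11, 9.32 and 4.81 CPM in AAV8-TBG-Cre livers (log2 fold change 1.80, adjusted p = 0.0619 by edgeR).

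The lysosomal carriers Slc38a9 and Slc36a1 did not pass the threshold. Slc38a9, which signals arginine to mTORC1, ranged from 8.95 to 11.6 CPM in AAV8-TBG-GFP livers and from 8.42 to 10.7 CPM in AAV8-TBG-Cre livers. Slc36a1 (PAT1) ranged from 48.4 to 57.1 CPM and from 48.8 to 51.0 CPM. Their log2 fold changes were both -0.11 and the sign turned on the FPKM scale.

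The response to amino acid shortage through GCN2 and ATF4 showed no common direction. Of 20 tested genes of a 21-gene list, 2 were higher (10%, against 12.0% of all genes) and 3 lower (15%, against 8.41%), with a median of -0.16, and none passed an adjusted p of 0.05 by edgeR (5 had an unadjusted p under 0.05). Cebpb, the C/EBP partner of ATF4, was at 251, 231 and 256 CPM in AAV8-TBG-GFP livers and at 187, 139 and 145 CPM in AAV8-TBG-Cre livers, without overlap (log2 fold change -0.65, adjusted p = 0.0735 by edgeR). The stress hormone Gdf15 was at 35.5, 17.1 and 44.4 CPM in AAV8-TBG-GFP livers and at 9.54, 17 and 9.34 CPM in AAV8-TBG-Cre livers (log2 fold change -1.43, adjusted p = 0.0948 by edgeR). Cth, which makes cysteine from cystathionine, was at 207, 216 and 224 CPM in AAV8-TBG-GFP livers and at 260, 395 and 636 CPM in AAV8-TBG-Cre livers, with each AAV8-TBG-Cre liver above all controls (log2 fold change 1.00, adjusted p = 0.122 by edgeR). Atf4 itself overlapped between the groups (log2 fold change -0.15).

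Enzymes that handle glutamine and glutathione showed 1 higher and 1 lower of 11 tested (9.09% each, against 12.0% and 8.41% of all genes, list of 12, median -0.17), and none passed an adjusted p of 0.05 by edgeR (2 had an unadjusted p under 0.05). Glul, the pericentral glutamine synthetase, was at 1812, 1571 and 2027 CPM in AAV8-TBG-GFP livers and at 665, 1354 and 1098 CPM in AAV8-TBG-Cre livers (log2 fold change -0.80, adjusted p = 0.159 by edgeR), so all AAV8-TBG-Cre livers were below all controls. Glud1 was not called (log2 fold change -0.33).

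Among 12 amino acid and oligopeptide transporters of other families, 9 were tested, 1 was higher and 1 lower (11.1% each, against 12.0% and 8.41% of all genes), and none passed an adjusted p of 0.05 by edgeR (2 had an unadjusted p under 0.05). Slc15a3, a lysosomal oligopeptide carrier of immune cells, was at 4.93, 6.89 and 5.08 CPM in AAV8-TBG-GFP livers and at 8.16, 18.6 and 9.48 CPM in AAV8-TBG-Cre livers (log2 fold change 1.11, adjusted p = 0.123 by edgeR), and it was highest in AAV8-TBG-Cre liver 2. Slc17a8, a vesicular glutamate carrier, was at 42.8, 50.1 and 26.5 CPM in AAV8-TBG-GFP livers and at 21.0, 13.3 and 13.8 CPM in AAV8-TBG-Cre livers (log2 fold change -1.31, adjusted p = 0.0619 by edgeR). The groups did not overlap in either gene. The cystine carrier Ctns, the next by p, was not called (log2 fold change -0.19). Cltrn, a partner protein that carries Slc6 carriers to the membrane in kidney, was too low to test.

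The share of the leading transcript did not overlap between the groups in 2 of the 6 carriers with several listed transcripts and at least 50 counts in every library (33.3%, against 10.4% of 3225 such genes). With so few carriers the values are given as a description. For Slc3a2, the transcript NM_008577 took 76.5%, 85.9% and 84.3% of the gene's counts in AAV8-TBG-GFP livers and 87.2%, 92.8% and 94.5% in AAV8-TBG-Cre livers. Its share was 9.24 percentage points higher without overlap, although the summed level of Slc3a2 overlapped. For Slc38a3, the transcript NM_001199217 took 93.4%, 91.4% and 92.0% in AAV8-TBG-GFP livers and 88.9%, 89.8% and 88.3% in AAV8-TBG-Cre livers, 3.27 percentage points lower without overlap, and the transcript NM_001199218 gained in its place, from 1.47%, 3.68% and 1.53% to 6.05%, 3.90% and 5.88%. The leading transcripts of Slc38a10, Slc43a2, Slc6a8 and Slc7a2 overlapped between the groups. Shares estimated for transcripts that share most of their bases depend on how reads were assigned, and in Slc43a2 the leading transcript moved between 0% and 100% among livers.

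The remaining tested genes were not called. They comprised Slc1a7, Slc36a4, Slc36a1os, Slc38a1, Slc38a6, Slc38a7, Slc43a3, Slc6a6, Slc6a7, Slc6a16, Slc6a18, Slc7a4, Slc7a6os and Slc7a14, with log2 fold changes from -0.68 (Slc1a7) to 1.48 (Slc6a7, the proline carrier of brain, at 0.153 to 0.559 CPM in controls and 0.481 to 1.81 CPM in AAV8-TBG-Cre livers). Slc38a1 (SNAT1) was at 1.32, 1.33 and 1.52 CPM in AAV8-TBG-GFP livers and at 1.72, 3.70 and 1.88 CPM in AAV8-TBG-Cre livers, without overlap and just short of the threshold (log2 fold change 0.81, unadjusted p = 0.0528 by edgeR). The taurine carrier Slc6a6 ranged from 64.5 to 92.0 CPM in controls and from 82.7 to 97.7 CPM in AAV8-TBG-Cre livers (log2 fold change 0.19). The 17 genes with counts but no test had at most 14 counts in any library.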

How the data were processed

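Liver RNA (6 libraries) was sequenced on a DNBseq platform. The deposited transcript tables hold expected counts and the deposited gene table holds FPKM, both made by the authors. The submitters' processing notes name HISAT2, Bowtie2, RSEM and mm10, whereas the study's methods name STAR, HTSeq and DESeq2. Expected counts were summed per gene, rounded and tested in edgeR 4.0.16 (R 4.3.3; TMM, filterByExpr with a minimum count of 10, quasi-likelihood, vector as the only factor), with Benjamini-Hochberg adjustment over 13431 genes. A call means an unadjusted p under 0.05 and a fold of at least 1.2. DESeq2 1.42.0, limma 3.58.1 on log2(FPKM + 1), other scalings and filters, a replicate block, the library name form as a covariate and leaving out each library were alternatives. The step was tested on simulated data. Genes named are those called, the 10 highest in control FPKM, the Slc3 genes with their partners, and transcripts whose shares did not overlap. Members and lists were chosen with earlier results of these data known. The p-values measure the spread between these livers. Some genes of these families and lists are not reported here.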

Additional observations from a re-analysis of the deposited data

How the results depend on the processing

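At the adjusted threshold, the count of genes higher rose from 0 to 4 with DESeq2 (against 4.06% of all genes). It rose to 1 without a filter on low counts (Slc6a8, against 1.29%) and to 1 with the library name form as a covariate (Slc43a1, against 0.700%). Leaving out each library gave 0 to 2 higher and 0 to 2 lower at that threshold, the 2 and 2 without AAV8-TBG-Cre replicate 1 (Slc6a8, Slc7a11, Slc3a1 and Slc6a9, against 6.78% of all genes). At the unadjusted threshold, limma on FPKM called 4 higher in each of its 3 fits and 1, 1 and 0 lower (pseudocounts of 1 and 0.1, and no filter). The 4 were 14.3%, 14.3% and 7.41% of the genes tested, against 15.5%, 16.4% and 10.9% of all genes. A fold of at least 1.5 left 1 lower, and the share over all genes at that fold is not given. Leaving out each library gave 5 to 10 higher and 0 to 4 lower, against 8.18% to 14.8% and 5.35% to 12.5% of all genes. The 10 and the 4 came without AAV8-TBG-Cre replicate 1, where the shares over all genes were also the largest (14.8% and 12.5%). The limma fits with a filter moved the median of the tested genes to 0.14 and 0.16, and that of all genes to 0.11 and 0.14, so changes on that scale are relative to this shift. The share of higher among all called genes was 58.9% in the main comparison, 72.3% with upper quartile scaling and 83.7% to 84.7% with limma. The cause of these differences was not tested. For named genes, 87 of the leave-one-out values and 156 of the other values were classed as unchanged, and 4 and 3 moved without a change of call. A call was gained in 5 and 10 and lost in 18 and 13, and no named call reversed. Some values classed as unchanged, in uncalled genes near 0, had the other sign. Same-numbered livers had correlations of 0.045, -0.280 and 0.229, and livers with unlike numbers had -0.318 to 0.337. With 3 livers per group these values cannot decide whether the numbers pair the livers. With a replicate block, 7 genes were higher and 2 lower (0 adjusted), against 11.2% and 8.14% of all genes, and 8 of the calls were shared with the main comparison. Slc7a1 (0.95) lost its call and Slc7a7 (0.69) gained one. Depth limits Slc7a6, Slc7a11 and the untested genes. Slc7a6 and Slc7a11 did not pass the filter of 10 counts in every library, and these and Slc7a1 did not pass the FPKM filter of limma. The 10 highest genes were the same 10 from summed transcript FPKM and without each control liver.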
